A study of Oryza sativa with 6 samples.

Results

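The genes described here are the rice invertases and sucrose synthases, the enzymes that split sucrose after it reaches a growing organ. They were chosen by name, as every gene called CIN, INV, NIN or SUS with a number (with or without Os in front) in the RefSeq gene table. That gave 16 genes, made up of 7 cell wall invertases, 2 neutral invertases and 7 sucrose synthases. The array platform's annotation paired 13 of the 16 with 15 probe sets, out of 17905 genes and 57258 probe sets measured in all. CIN5, CIN6 and SUS7 had no probe set naming them alone and were not analysed here. The cell wall invertase gene CIN2 (LOC4335790) prompted the choice, because its difference between sro and wild type was already known. Its values are therefore given as a description without a test. The other 12 measured genes carry the tests. They were picked by name, though with earlier results of these data known.

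Sucrose is the main sugar carried in the phloem, and it cannot enter metabolism until it is cleaved. Cell wall invertases split it into glucose and fructose outside the cell, where hexose carriers then take up the products. Neutral invertases do the same reaction inside the cell, in the cytosol, mitochondria or plastids. Sucrose synthases cleave sucrose reversibly with UDP into fructose and UDP-glucose, a precursor of cellulose and, through further steps, of starch. In rice, CIN2 is also known as GIF1, a gene required for normal grain filling.

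The sro mutant was compared with wild type, both as 4-5 mm inflorescences of rice grown in a paddy field, with 3 biological replicates of each and 1 Affymetrix array per replicate. The labels give the wild type as Japonica variety 9522, state that no special treatment was applied, and name neither the sro allele nor how many plants went into a replicate. At this length stamens and carpels have begun to form in most spikelets and SRO expression peaks, per the labels. The comparison asks which of these genes differ in transcript level between the genotypes at that time. In whole inflorescences, fewer cells of a type and less RNA per cell cannot be told apart.

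Array medians lay between 5.30 and 5.31 in sro and between 5.26 and 5.29 in wild type on the log2 scale, and arrays of a genotype correlated at 0.997 to 0.998. All 11 genes matched as markers of floral organs lay above the level of the 10 probe sets for the fungus Magnaporthe, which served as a level without target (mean 4.69 in sro and 4.65 in wild type). Their summed linear intensity was 29826 to 30702 in sro and 25609 to 28496 in wild type, and 4 of the 11 were called higher, beside 7.28% of all genes. Of 4 late anther and tapetum markers, 3 were called higher, beside the same 7.28%. Their summed intensities were 1383 to 1506 in sro and 142.1 to 493.9 in wild type. Of 3 green tissue markers 1 was called lower, beside 19.4% of all genes (summed 1039 to 1171 in sro and 1147 to 1300 in wild type, RBCS1 below the fungal level). Of 6 endosperm storage markers 0 were called, beside 26.6% of all genes called in either direction. Their sums were 368.7 to 394.0 in sro and 259.5 to 377.7 in wild type, with GLUA-1, GLUA-3 and GLUB-4 below the fungal level. The dap labelling spike, read at its 5 prime end, was 9.74, 7.46 and 9.03 in sro replicates 1, 2 and 3, against 7.08, 7.12 and 7.12 in wild type (exact permutation test, two-sided, p = 0.1, and no smaller p is possible with 3 arrays a group). Its 3 prime minus 5 prime difference was 1.56, 3.97 and 2.33 in sro, against 4.13, 3.93 and 4.06 in wild type, and that of actin was 2.88, 3.34 and 3.16 in sro, against 3.48, 3.63 and 3.32 in wild type (exact permutation test, two-sided, p = 0.2 for each). The part of these markers and controls in the results below was not tested, except where a value without the arrays concerned is given.

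CIN2 was the gene of the family that differed most between the genotypes. Its log2 intensities were 5.40, 5.48 and 5.59 in sro replicates 1, 2 and 3, against 7.42, 6.98 and 7.36 in wild type. The groups stood well apart, with a gap of 1.39 between the highest sro array and the lowest wild-type array. The means were 5.49 ± 0.10 in sro and 7.25 ± 0.24 in wild type (SD, n = 3 each), a log2 change of -1.77 (SE 0.12), so wild type was 3.40-fold higher on this probe set. Among the 17905 genes measured, 36 had a larger fall. The sro level was still above that of the fungal probe sets (mean 4.69 in sro). It was dim, though, and RMA tends to compress differences of dim probe sets. The fold therefore describes the signal of this probe set and does not bound the change of the transcript. With sro represented by replicate 2 alone, the array whose dap spike was nearest to wild type, a comparison chosen after seeing the data, the change was also -1.77. CIN2 was measured by 1 probe set, so no other probe set bears on its value.

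**Figure D1:**
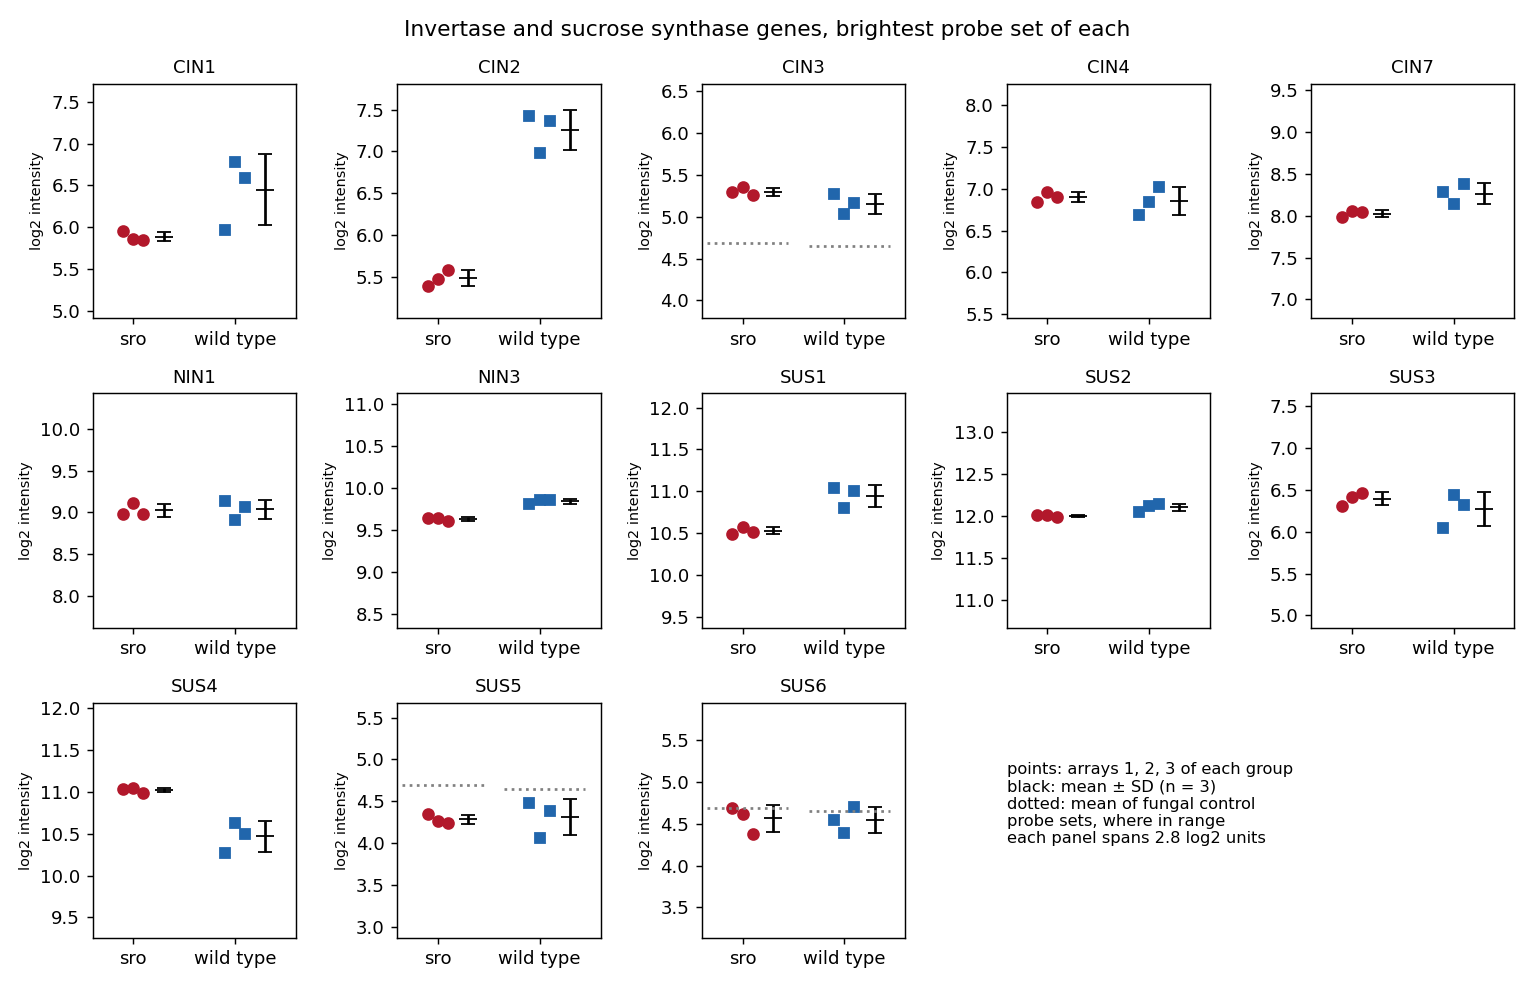
Log2 intensity of the 13 measured invertase and sucrose synthase genes on each array, sro (circles) left of wild type (squares), with the mean ± SD of 3 arrays in black. Each panel has its own centre but spans the same number of log2 units, and the dotted lines give the mean of the fungal control probe sets where they fall in range. CIN2 shows the widest gap between the groups, and SUS5 and SUS6 lie below the control level on average.

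The other cell wall invertases had smaller differences, and none of the 4 passed the test (limma, adjusted p under 0.05 over all 57258 probe sets). Among all genes, 26.6% passed. CIN1 (LOC4329561) had log2 intensities of 5.95, 5.86 and 5.85 in sro, against 5.97, 6.78 and 6.59 in wild type. The groups did not overlap, but wild type replicate 1 lay next to the sro arrays while the other two wild-type arrays were higher. Its log2 change was -0.56 (95% interval -0.98 to -0.14, adjusted p = 0.0822), and without wild type replicate 1 it was -0.80 and passed (adjusted p = 0.00233). With any other array left out CIN1 did not pass (adjusted p between 0.149 and 0.229). CIN7 (LOC4346527, also INV1) read 7.98, 8.05 and 8.04 in sro, against 8.28, 8.14 and 8.38 in wild type. All 3 of its sro arrays were below all 3 wild-type arrays, by small amounts, with a log2 change of -0.24 (95% interval -0.41 to -0.07, adjusted p = 0.0708). It passed without wild type replicate 2 (-0.30, adjusted p = 0.0294), and at the same change when probe sets below the median level were left out before adjustment (adjusted p = 0.0358). With any other array left out CIN7 did not pass (adjusted p between 0.128 and 0.185). Nor did it pass after quantile normalization (-0.16, adjusted p = 0.135).

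CIN3 (LOC4335789, also INV4) is known as an invertase of the anther, made in the tapetum. It read 5.29, 5.35 and 5.26 in sro, against 5.27, 5.03 and 5.16 in wild type. These groups overlapped, both stayed a little above the fungal probe sets, and the log2 change was 0.15 (95% interval -0.03 to 0.32, adjusted p = 0.248). CIN4 (LOC4324001) averaged 6.90 ± 0.06 in sro and 6.85 ± 0.17 in wild type, with overlapping groups and a log2 change of 0.05 (95% interval -0.16 to 0.26, adjusted p = 0.767). For CIN3 and CIN4 the interval holds 0 and bounds the change in probe set signal to well below that seen for CIN2. CIN3 read near the fungal level, where RMA tends to compress differences, so the change of its transcript is not bounded.

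CIN2 and CIN3 lie side by side on chromosome 4, with 0 protein-coding genes between them in the RefSeq gene order, and so do CIN5 and CIN6. On each array the CIN2 signal exceeded that of CIN3, by 0.11, 0.13 and 0.33 log2 units in sro, against 2.15, 1.95 and 2.19 in wild type. These values do not set the abundance of one transcript against the other. The probe set signals of the neighbours thus changed unequally, with a difference of -1.91 log2 units between their changes. That is a description, because CIN2 was chosen for its change. Whether the transcripts changed unequally is not settled by it, since the change of the CIN3 transcript is not bounded. Whether probes of either gene also bind the other's transcript was not tested. Of the 5 genes on each side of CIN2, 7 were measured, a window chosen after the values were seen. LOC4335785, 5 genes away, fell by 0.73 (adjusted p = 0.000278), and LOC4335793, 2 genes away on the other side, rose by 0.31 (adjusted p = 0.0146). The remaining 5, CIN3 included, were not called. Among all 17905 genes, 26.6% were called, so calls among 7 neighbours do not mark out this region.

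**Figure D2:**
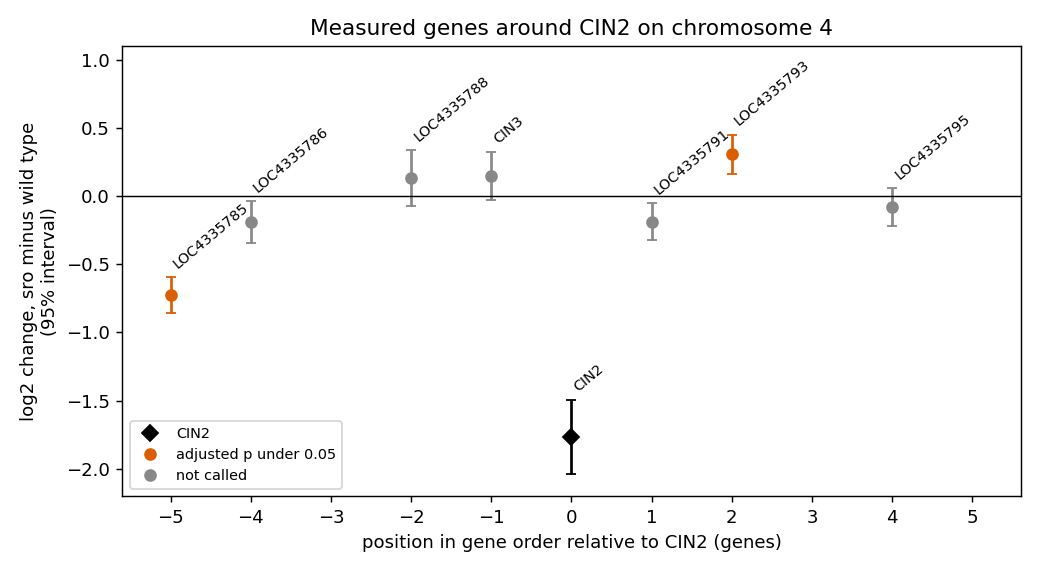
Log2 change, sro minus wild type, of the measured genes within 5 places of CIN2 in the gene order of chromosome 4, with 95% intervals. CIN2 (diamond) lies at -1.77, and its adjacent genes CIN3 and LOC4335791 lie at 0.15 and -0.19.

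Of the 2 neutral invertases, NIN3 fell by a small amount and NIN1 did not pass the test. NIN3 (LOC4329537), known from work on rice as a plastid enzyme, read 9.65, 9.64 and 9.60 in sro, against 9.81, 9.85 and 9.86 in wild type. The replicates of each group were tight and the groups did not overlap. The log2 change was -0.21 (SE 0.06, adjusted p = 0.0414), which is 1.16-fold higher in wild type. The call was close to the threshold and was lost whichever array was left out, at changes of -0.20 to -0.22 (adjusted p between 0.0656 and 0.154), and after quantile normalization (-0.17, adjusted p = 0.0653). NIN1 (LOC4332650), the mitochondrial enzyme, averaged 9.03 ± 0.08 in sro and 9.04 ± 0.11 in wild type, with overlapping groups and a log2 change of -0.01 (95% interval -0.19 to 0.17, adjusted p = 0.953). CINV1 (LOC4329626), a cytosolic neutral invertase whose name falls just outside the naming rule, read 9.05, 9.08 and 9.11 in sro, against 9.44, 9.50 and 9.49 in wild type. It fell by 0.40 on the log2 scale (SE 0.06, adjusted p = 0.00324).

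Among the sucrose synthases, SUS4 rose and SUS1 fell. SUS4 (LOC4332788), best known from developing grains, read 11.03, 11.05 and 10.99 in sro, against 10.27, 10.63 and 10.50 in wild type. Every sro array was above every wild-type array, and the wild-type arrays were the more spread. The log2 change was 0.56 (SE 0.09, adjusted p = 0.00642), a 1.47-fold rise.

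SUS1 (LOC4333062), known for its expression in elongating tissues, was measured by a pair of probe sets. The brighter read 10.49, 10.57 and 10.52 in sro, against 11.04, 10.80 and 11.00 in wild type. The dimmer read 8.60, 8.33 and 8.38 in sro, against 8.89, 8.74 and 8.91 in wild type. In both, the groups did not overlap and sro was lower. The brighter changed by -0.42 on the log2 scale (SE 0.08, adjusted p = 0.0101) and the dimmer by -0.41 (SE 0.09, adjusted p = 0.0181). The dimmer belongs to the class that Affymetrix marks as able to bind other transcripts.

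SUS4 and SUS1 both kept their calls whichever array was left out. In a linear model without moderation neither passed (adjusted p = 0.0618 and 0.0612), and with sro represented by replicate 2 alone the changes were of similar size, 0.58 for SUS4 and -0.37 for SUS1. The calls were lost there, where the lone sro array is assumed to vary like wild type. The difference of SUS4 minus SUS1 within an array was 0.54, 0.47 and 0.47 in sro, against -0.77, -0.16 and -0.50 in wild type. It was 0.97 higher in sro, which is a description, since the pair was chosen for opposite calls. It does not set the abundance of one transcript against the other.

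The other 4 measured sucrose synthases were not called. SUS2 (LOC4340386), expressed in most rice tissues, averaged 12.00 ± 0.01 in sro and 12.11 ± 0.04 in wild type, with a log2 change of -0.10 (95% interval -0.23 to 0.03, adjusted p = 0.279) and groups that did not overlap. SUS3 (LOC4343910), like SUS4 best known from grains, read 6.31, 6.41 and 6.46 in sro, against 6.05, 6.44 and 6.32 in wild type. Its groups overlapped and its log2 change was 0.12 (95% interval -0.11 to 0.36, adjusted p = 0.472). SUS5 (LOC4335447) and both probe sets of SUS6 (LOC4331252) averaged below the fungal probe sets in each genotype, so no fold is given for them. The 3 probe sets had log2 changes of -0.02, 0.02 and 0.01.

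**Figure D3:**
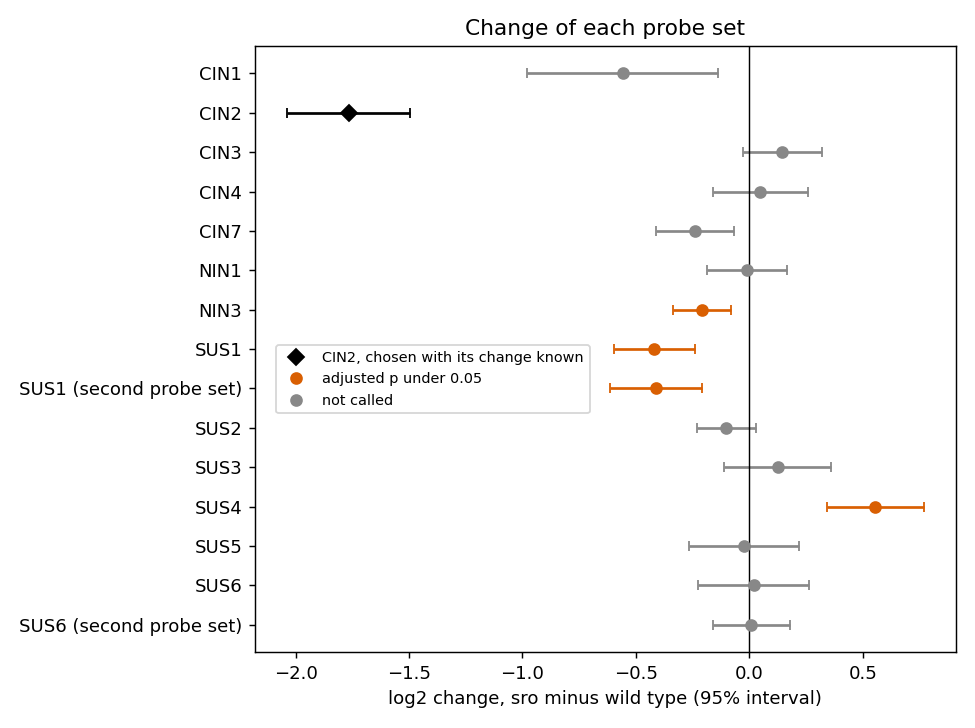
Log2 change, sro minus wild type, of all 15 probe sets with 95% intervals from limma. SUS4 at 0.56 lies to the right of 0, both SUS1 probe sets (-0.42 and -0.41) and NIN3 (-0.21) lie to the left, and CIN2, a diamond because its change was known beforehand, lies at -1.77.

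Counted over the 12 genes other than CIN2, 2 fell (NIN3 and SUS1), 1 rose (SUS4) and 9 were not called. That is 25.0% called, beside 26.6% of all 17905 genes taken by their brightest probe set, of which 19.4% were lower and 7.28% higher (14.6% of all 57258 probe sets were called). The median log2 change of the 12 was -0.02, beside -0.06 over all genes. Groups did not overlap for 6 of the 12 (50.0%), beside 53.3% of all genes and 34.6% of all probe sets. With any of the 3 sro arrays or wild type replicate 3 left out, the count that fell was 1. As a set, these genes were called about as often as genes in general. Wild-type arrays were more spread than sro arrays for 12 of the 13 genes, CIN2 included, with a median SD of 0.16 in wild type and 0.05 in sro. Over all genes the wild-type SD was the larger for 67.7%, with medians of 0.05 in sro and 0.08 in wild type. Within wild type the lowest array was replicate 1 for 6 genes and replicate 2 for 7.

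Of 2452 other genes with a name, the 3 whose pattern over the 6 arrays lay nearest to that of CIN2 were ADF-11, OsRR9 and OsPP2C01. The measure was the root mean square difference after each gene was centred on its own mean. A gene lies near on it only if its genotype difference is of similar size. The log2 changes of the 3 were -1.70, -1.56 and -1.86, and shared regulation was not tested. ADF-11 (LOC4352848), whose product severs actin filaments, lay 0.11 log2 units from CIN2 and averaged 6.37 ± 0.20 in sro and 8.07 ± 0.28 in wild type. OsRR9 (LOC4349747), a cytokinin response regulator, and OsPP2C01 (LOC4324414), a protein phosphatase, lay 0.12 units away, and both averaged below the fungal probe sets in sro.

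The steps around sucrose cleavage were followed with 49 further measured genes, listed by name. Of these 8 fell, 5 rose and 36 were not called (26.5% called, beside 26.6% of all genes), with a median log2 change of 0.02. Averages below the fungal probe sets in both genotypes were found for 10 of the 49. The next steps after invertase are hexose uptake and phosphorylation. The calls on the transporter list went in both directions, and those on the phosphorylation list were all falls. Hexokinases phosphorylate the glucose that invertase releases. Beside 19.4% of all genes lower and 7.28% higher, 4 of the 8 genes of the hexose phosphorylation list fell and 0 rose. They were HXK5 (LOC4339361, a glucose sensor as well as an enzyme, -0.77, adjusted p = 0.000956), HXK3 (LOC4326516, -1.07) and the genes LOC4326547 and LOC4339420, both named HXK2 (-0.31 each). Of the 18 sugar transporters, 2 rose and 1 fell, and 6 averaged below the fungal probe sets in both genotypes. SWEET1B rose 2.72-fold and the hexose carrier gene MST3 rose 1.74-fold (adjusted p = 0.0466), while SWEET1A fell by 0.83 on its brighter probe set and was not called on its dimmer one (0.16). The sucrose carrier gene SUT1 had a log2 change of 0.23 (adjusted p = 0.0835).

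None of the 8 genes on the sucrose synthesis list was called, beside 26.6% of all genes, SPS3 coming nearest (-0.20, adjusted p = 0.0653). Groups did not overlap for 3 of the 8 (37.5%), beside 53.3% of all genes. That list was matched by symbol, and both LOC9267741 and LOC4328527 were named SPS2. Whether every gene on it acts in sucrose synthesis was not checked. Among 7 starch genes, SS1 rose by 0.24 (adjusted p = 0.0302) and SS2 fell by 0.74 on its brightest probe set, while its other probe sets were not called (0.07 and 0.09). Trehalose phosphate phosphatases act on a sugar phosphate that signals sucrose supply. Of the 8 on the list 2 rose and 2 fell, beside 7.28% higher and 19.4% lower among all genes. TPP3, TPP6 and TPP10 averaged below the fungal probe sets in both genotypes. TPP7 (LOC4346885) read 11.04, 10.98 and 10.97 in sro, against 6.93, 7.92 and 7.76 in wild type. It rose by 3.46 on the log2 scale (SE 0.22, adjusted p = 0.000115), and its dimmer probe set rose by 1.30. TPP1 rose by 2.14, and TPP4 and TPP2 (LOC4349333) fell by 1.21 and 0.36. Of the 13 calls among the sugar genes, 8 held whichever array was left out. The other 5 were lost without at least 1 array, namely SS1 in 6 of 6 cases, LOC4339420 and MST3 in 4 of 6 each, and TPP2 and LOC4326547 in 3 of 6 each. Without sro replicate 1 or wild type replicate 3, 5 of the sugar genes fell and 3 rose.

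**Figure D4:**
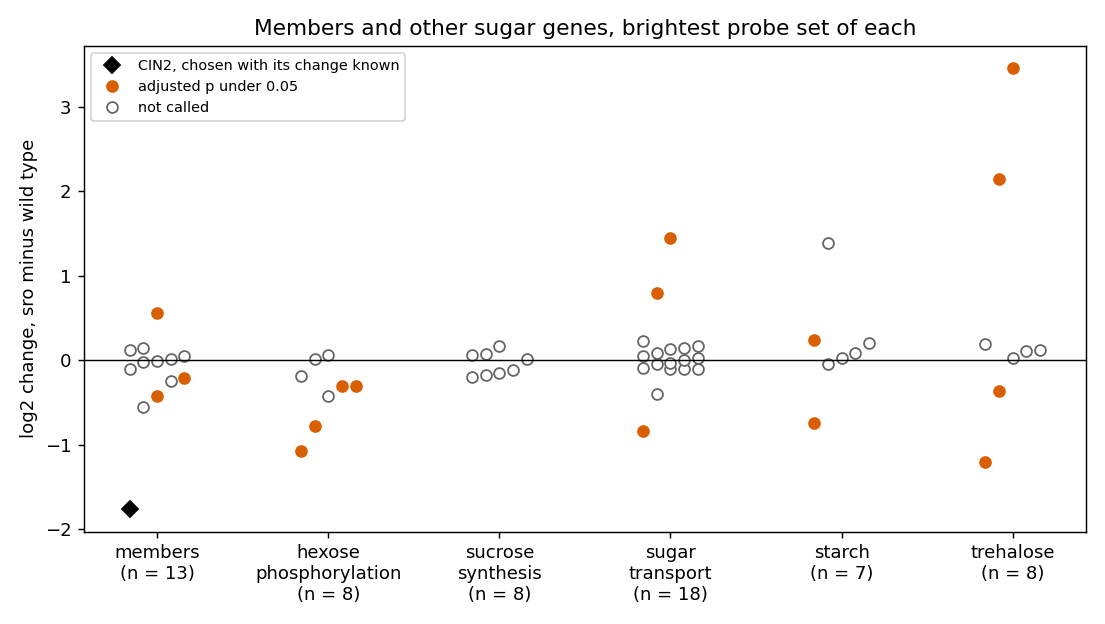
Log2 change, sro minus wild type, of each invertase and sucrose synthase gene (first column, CIN2 as a diamond) and of the other sugar genes by list, 1 point per gene, filled where the adjusted p was under 0.05. TPP7 at 3.46 is the highest point and CIN2 at -1.77 the lowest, and the sucrose synthesis column holds no filled point.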

How the data were processed

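The authors deposited log2 values per probe set, 1 column for each of 6 Affymetrix arrays (3 sro, 3 wild type). The submitters' processing notes name RMA and Partek, with no versions or settings, and the log2 scale was inferred from the values. RMA normalizes arrays to one another and tends to compress differences of dim probe sets. No detection calls or scan dates were at hand, and the precision is that of 3 arrays a group.

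The values were used as deposited, without 123 control probe sets. Genes were paired with probe sets through GEO's platform annotation (22436 probe sets with 1 gene, 95 with several and not named, 34727 of those tested with none listed). All 17905 genes matched RefSeq assembly ASM3414082v1, used for names and gene order only. No sequences were used here. A gene is represented by its probe set with the highest mean over the 6 arrays.

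Sro was compared with wild type by limma 3.58.1 in R 4.3.3 (lmFit, eBayes, no covariates, two-sided, Benjamini-Hochberg over 57258 probe sets, threshold 0.05), tested on simulated data. Each adjusted p is limma's. Python 3.11.15, pandas 2.3.3 and matplotlib 3.10.9 made the summaries and figures. The named genes are all members, up to 4 genes of each other sugar list with the smallest p, and the 3 nearest to CIN2. From the sugar lists 9 genes were left out, 8 because their synonyms name another protein and 1 of unclear identity, before those genes' values were seen. Fungal probe sets as a level without target, the flanking genes and CINV1 were chosen after values were seen. The members and lists were chosen with earlier results of these data known. The labels call the replicates biological.

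Same-numbered arrays did not deviate together (correlations of -0.02, -0.03 and -0.004), so the numbers were not taken as pairs.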

Additional observations from a re-analysis of the deposited data

How the results depend on the processing

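CIN2 had a log2 change between -1.90 and -1.68 over all the alternatives run. Among the 12 other genes, 2 fell and 1 rose. With the replicate number as a block these counts were 1 and 1, after quantile normalization 1 and 1, in an unmoderated model 1 and 0, with a variance trend 5 and 1 (CIN1, CIN7 and SUS2 added), with probe sets below the median level left out 3 and 1 (CIN7 added), with probe sets averaged 2 and 1, and with sro represented by replicate 2 alone (added after seeing the data) 0 and 0. Leaving out each array in turn gave 1 to 2 that fell and 1 that rose. Of the 49 further sugar genes, 8 fell and 5 rose, against 7 and 4 with the block, 8 and 6 after quantile normalization, 5 and 3 in the unmoderated model, 11 and 5 with the variance trend, 11 and 6 without the dimmer probe sets, 8 and 5 with probe sets averaged and 3 and 2 with sro replicate 2 alone, and leaving out arrays gave 5 to 9 that fell and 3 to 4 that rose. Over all probe sets the calls were 3202 higher and 5175 lower, against 1993 and 2972 unmoderated, 4165 and 6737 with the variance trend, 3774 and 6191 without the dimmer probe sets and 266 and 402 with sro replicate 2 alone. That last alternative has 1 sro array, assumed to vary like wild type, and the cause of the other changes was not tested. Signs turned for 4 genes near 0 that were called under none of these alternatives. NIN1 was 0.0468 after quantile normalization, 0.0789 with sro replicate 2 alone and -0.0718 to 0.0391 with an array left out. SUS6 was -0.0195 after quantile normalization and -0.0586 to 0.111 with an array left out. Leaving out arrays gave -0.145 to 0.0596 for SUS5 and -0.0346 to 0.135 for CIN4. The replicate block changed the call of NIN3 (-0.21, adjusted p = 0.105) and of no other invertase or sucrose synthase gene. Whether a change passed depended on the spread of its replicates as well as its size.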

Other observations

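GBSS1 (LOC4340018), the granule-bound starch synthase of the Waxy locus, read 7.09, 7.31 and 7.24 in sro on its brightest probe set, against 3.57, 7.21 and 6.69 in wild type. Wild type replicate 1 was thus far below the other 5 arrays on that probe set, which is of the class marked as able to bind other transcripts, and the gene was not called (log2 change 1.39, adjusted p = 0.303). Its 5 other probe sets were mixed. On the next brightest wild type read 5.15, 5.19 and 5.15, and on another replicate 1 was the highest wild-type array (4.99, 4.79 and 4.60). TPP1, TPP7 and CIN1 also had their lowest wild-type value in replicate 1 (6.15, 6.93 and 5.97), whereas CIN2, MST3 and SWEET1B had theirs in replicate 2 (6.98, 7.31 and 8.59).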
